A study of Mus musculus with 23 samples.

Results

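The genes encoding collagen chains, laminin chains, nidogens and fibronectin were followed through cultures of mouse hippocampal neurons that had or had not been pulled on by magnetic particles. They were chosen by symbol: every protein-coding gene named as a collagen alpha chain, a laminin alpha, beta or gamma chain, Nid1, Nid2 or Fn1. This gave 58 of the 55487 gene IDs in the count tables, made up of 44 collagen genes, 11 laminin genes, 2 nidogens and fibronectin. The question was whether these genes differed between stretched and control cultures and between the cell-body side and the axonal side of the chamber.

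Neurons came from the hippocampi of C57Bl/6 pups at postnatal day 1, and 200000 cells were seeded on the soma side of a microfluidic chamber, from which axons grow into a separate axonal compartment. All cultures were seeded in medium with 10% fetal bovine serum and then kept with 5 µg/ml of magnetic nanoparticles (MNPs), the controls included. Stretched cultures were placed in a magnetic gradient of 50 T/m between days in vitro (DIV) 1 and 6, while control cultures stood in a null gradient. The labels give 5 control and 6 stretched libraries as pure axonal preparations, and 6 control and 6 stretched libraries as total cell culture, which the protocol calls somatodendritic and which are called soma libraries here. The chambers were coated with laminin protein, at 1 µg/ml on the soma side and 10 µg/ml on the axonal side, so part of the matrix met by these cells was supplied. The values below are messenger RNA only. The labels do not say whether the libraries came from separate animals or cultures, so p-values measure the spread between these samples, which may in part be technical.

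Collagens are secreted trimers of alpha chains. Fibrillar collagens such as types I, II, III, V and XI build fibres, and fibril-associated types such as IX, XII and XVI bind to them. Type IV collagen, laminins (trimers of an alpha, a beta and a gamma chain) and nidogens, which join both networks, build basement membranes, the thin sheets around blood vessels and at the brain surface. Fibronectin is a secreted protein that binds integrins and collagens. In the brain these genes are known from fibroblasts of the meninges, vascular and perivascular cells, and in part from astrocytes and neurons, while laminin is widely used as a growth substrate for axons.

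Library totals ran from 16369153 to 43048953 counts, and a floor of 3 counts, taken here as the least that counts as detected, was worth 0.0697 to 0.183 CPM (counts scaled to a common library total). Such a floor reflects counting error alone, because PCR copies of 1 molecule are counted separately unless they are collapsed. A pair of features of the soma libraries touch the results. Control soma 4 stood apart from the other control soma libraries: of 13919 genes averaging 1 CPM or more it was the highest of the 6 controls for 28.6%, against 12.2 to 18.0% for the other controls. The soma libraries also fell into 2 sets by the Y-linked gene Eif2s3y, with 24.7 to 28.7 CPM in control 1, 2 and 3 and stretched 1, 2 and 8, and 5.39 to 13.2 CPM in control 4, 5 and 6 and stretched 4, 5 and 6. The labels name no batch, and these are called the Eif2s3y-high and Eif2s3y-low libraries.

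Markers of the cells that usually make this matrix were present in the soma libraries at low levels. The 33 fibroblast and mural-cell markers together took 0.0542 to 0.0623% of counts in control soma and 0.0563 to 0.0631% in stretched soma libraries, and 25 to 30 of the 33 were over 3 counts. Pdgfrb, a receptor of mural cells and fibroblasts, was at 11.0 to 26.9 CPM in control soma libraries and Dcn, a proteoglycan of fibroblasts, at 12.7 to 32.2 CPM. Regulators on the list differed. Twist1 and Foxd1 did not pass 0.372 CPM in any soma library, and Foxc1 also had too few counts to be tested for stretch. Prrx1 and Tbx18 had enough counts to be tested. The 15 endothelial markers took 0.00274 to 0.00419% of counts in control soma libraries. The 12 astrocyte markers took 0.540 to 1.46%, led by Gfap at 3546 to 10496 CPM, and the 14 neuron markers took 0.859 to 0.999%. The 58 matrix genes themselves took 0.0670 to 0.105% of counts in control soma and 0.0809 to 0.1102% in stretched soma libraries. In these bulk samples, fewer cells of a type and less RNA per cell cannot be told apart.

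Levels in the soma libraries were compared between genes as CPM per kb of the longest annotated transcript, in control soma libraries (mean ± SD, n = 6). Col9a3, one of the chains of type IX collagen, was highest at 24.8 ± 6.67. Col1a1, the main chain of type I collagen, followed at 14.3 ± 3.70, and Lamb1, the beta-1 laminin chain, at 12.9 ± 3.86. Next came Lamb2 at 9.18 ± 2.14, Col18a1, whose end fragment is endostatin, at 8.64 ± 1.51, Fn1 at 7.58 ± 3.06 and Col3a1, the chain of type III collagen, at 7.27 ± 2.47. These 7 genes spanned several roles, and the last 4 lay within each other's SD. Col4a2 stood at 5.40 ± 1.79, Col19a1 at 4.32 ± 1.68, Col4a1 at 4.29 ± 1.24, Col6a1 at 4.12 ± 0.854 and Nid1 at 3.85 ± 1.23 CPM per kb, each within 1 SD of Col4a2. At the other end, 9 genes (Col10a1, Col17a1, Col20a1, Col24a1, Col4a3, Col6a4, Col6a5, Col6a6 and Col9a2) had too few counts to be tested and did not pass 0.833 CPM in any soma library.

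**Figure D1:**
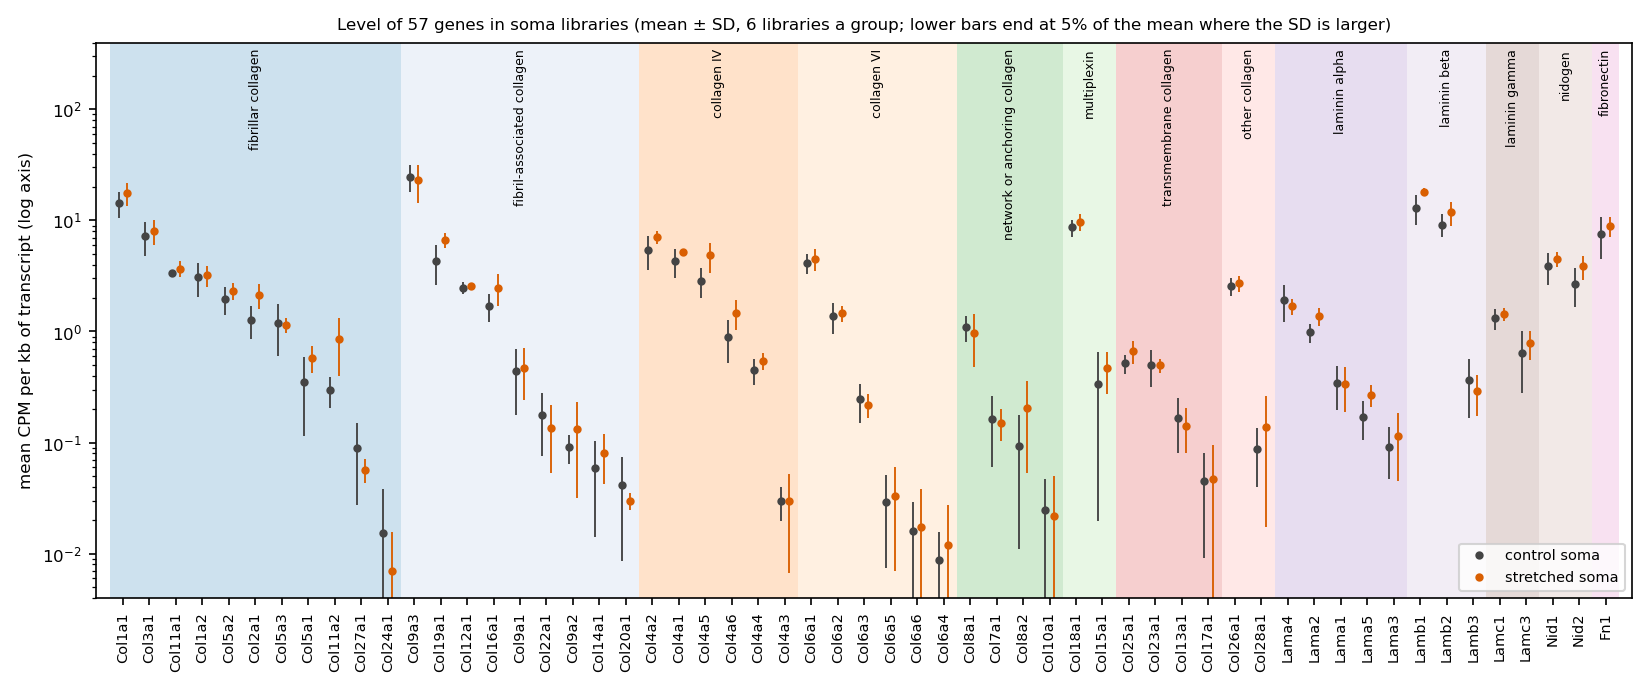
Level of 57 of the 58 genes in the soma libraries, as mean CPM per kb of transcript on a log axis, with bars for the SD over 6 libraries of each group, ordered by role and then by level. Col9a3, Col1a1, Lamb1 and Lamb2 are the highest in control soma libraries, at 24.8, 14.3, 12.9 and 9.18 CPM per kb.

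Chains that assemble into one protein were not present at equal levels. The beta laminin chains together were at 22.5 ± 4.69 CPM per kb in control soma libraries, against 3.51 ± 0.704 for the 5 alpha chains and 2.41 ± 0.631 for the 3 gamma chains (SD, n = 6). Among alpha chains Lama4 (1.92 ± 0.716) and Lama2 (0.986 ± 0.192), both found in vessel and muscle basement membranes, were the highest, and among gamma chains Lamc1 (1.32 ± 0.286), the common one. The ratio of Lamb1 to Lamc1 per kb had a median of 9.60 in control soma (range 7.23 to 12.6) and 12.5 in stretched soma libraries (9.41 to 15.5). Col1a1 exceeded its partner Col1a2 by a median of 5.07 (3.07 to 5.94) in control soma libraries, and Col9a3 exceeded Col9a1 by 56.4 (36.1 to 128), while Col9a2, which completes the type IX trimer, was among the genes too low to test. Col4a1 and Col4a2, which make the common type IV trimer, were close, with a median ratio of 0.867 (0.451 to 1.08). These ratios rest on the longest annotated transcript of each gene. Exons of Col9a3, Nid2, Lamc3 and Lama2 overlap those of other genes over 3.86 to 8.45% of their bases, and the strand setting of the counting is not given in the sources used here.

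Stretch in the soma libraries was compared with the edgeR quasi-likelihood test, adjusted by Benjamini-Hochberg over 15632 genes. Of the 58 genes 49 had enough counts to be tested, and 6 were higher in stretched libraries at an adjusted p under 0.05: Col11a2, Col4a5, Col2a1, Col19a1, Lamb1 and Lama2. None was lower (10 of the 49 had an unadjusted p under 0.05, and limma voom called 1 lower). The 6 make 12.2% of the 49, close to the 11.2% of all tested genes called higher in the same fit, while 13.9% of all genes were called lower. The median log2 fold change of the 49 was 0.20 against −0.03 over all tested genes, and 36 of the 49 were above 0. No gene of the group had all stretched libraries above all control libraries, which 1.31% of all tested genes did. Without control soma 4 this was true of 2 of them, Col19a1 and Lamb1, against 12.3% of all genes.

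**Figure D2:**
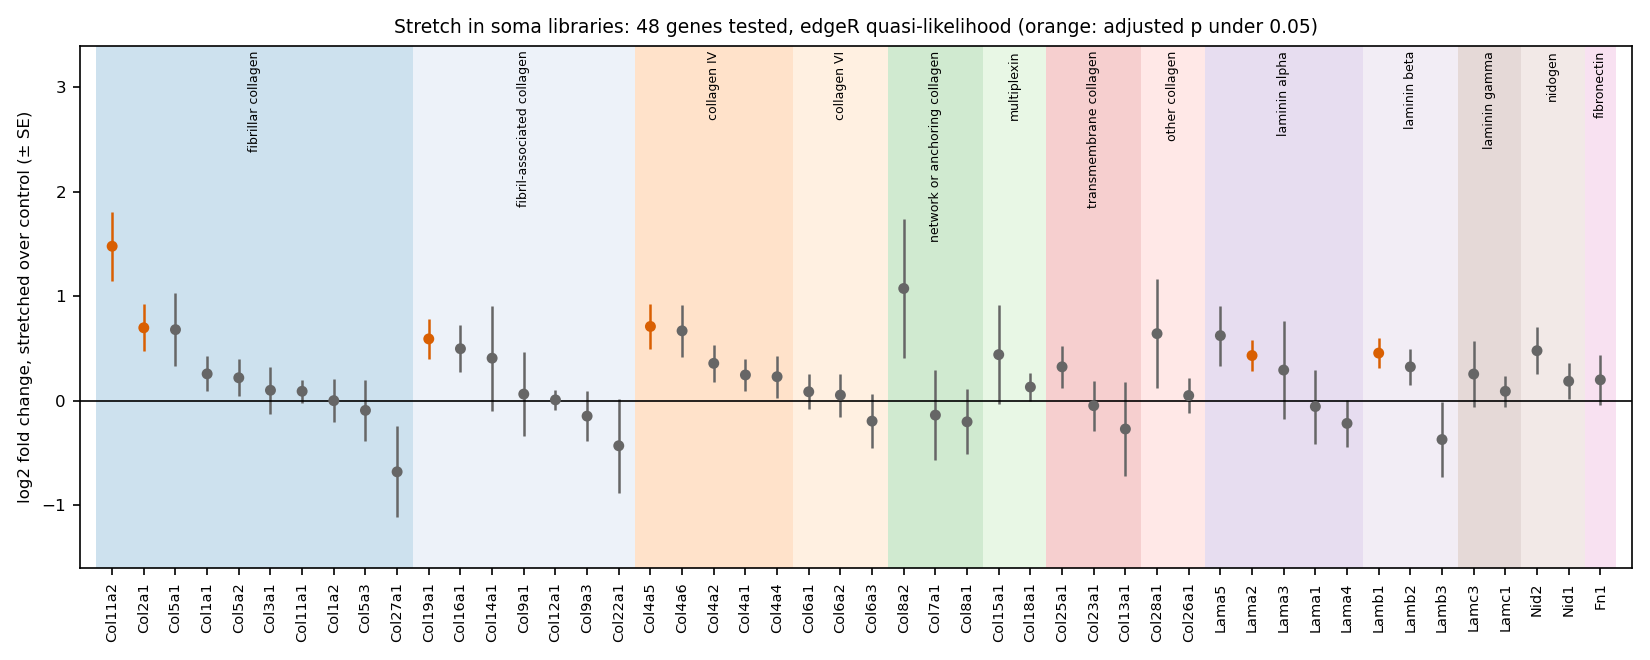
Log2 fold change of stretched over control soma libraries with its SE for 48 of the 49 genes tested, ordered by role and then by size. The 6 genes in orange passed an edgeR adjusted p of 0.05, from 0.43 for Lama2 to 1.48 for Col11a2, and the most negative value shown is Col27a1 at −0.68, which did not pass.

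Col11a2, a minor fibrillar chain that joins Col11a1 and Col2a1 in cartilage fibres, showed the largest difference of the group. Normalised by TMM, it ran from 1.11 to 2.69 CPM in control soma (median 1.79) and from 2.45 to 9.50 CPM in stretched soma libraries (median 4.15). The lowest stretched library, number 4, lay just under the highest control, number 3, and the other 5 stretched libraries were above all controls. The log2 fold change was 1.48 ± 0.33 (SE, adjusted p = 0.00845), and leaving out any 1 soma library kept the call. Col2a1, the main cartilage fibrillar chain, ran from 4.02 to 8.69 (median 7.26) in control and from 7.53 to 14.7 CPM (median 10.7) in stretched libraries, a log2 fold change of 0.70 ± 0.23 (adjusted p = 0.0345). The groups overlapped at control 3 and 4 and stretched 4 and 6. The partner of both, Col11a1, did not pass (0.09 ± 0.11, adjusted p = 0.583). The per-kb ratio of Col11a1 to Col11a2 had a median of 11.3 (8.50 to 17.8) in control and 4.81 (2.79 to 7.57) in stretched soma libraries.

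The 300-base window at the RefSeq start of Col11a2 is printed because this gene carries the largest difference, and those of Col4a5 and Col4a6 because the pair lies head to head and the log2 fold changes of both were alike (0.71 and 0.67). Each is given 5′ to 3′ on the strand of the gene, from 250 bases before to 50 bases after the start, from RefSeq on GRCm38.p6. Capitals mark the GC box, the letters GGGCGG on either strand. The windows are chr17:34038888-34039187 on the plus strand, chrX:141475169-141475468 on the plus strand and chrX:141474027-141474326 on the minus strand. For Col11a2 the annotation used for transcript lengths starts the gene at chr17:34039437, so the printed window lies wholly before that start.
Col11a2: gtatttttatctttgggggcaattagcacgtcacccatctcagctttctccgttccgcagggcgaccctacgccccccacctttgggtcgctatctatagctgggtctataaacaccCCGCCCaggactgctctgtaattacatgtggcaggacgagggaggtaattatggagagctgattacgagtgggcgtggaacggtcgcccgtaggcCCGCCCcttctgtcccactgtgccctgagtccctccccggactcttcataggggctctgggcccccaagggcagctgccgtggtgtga
Col4a5: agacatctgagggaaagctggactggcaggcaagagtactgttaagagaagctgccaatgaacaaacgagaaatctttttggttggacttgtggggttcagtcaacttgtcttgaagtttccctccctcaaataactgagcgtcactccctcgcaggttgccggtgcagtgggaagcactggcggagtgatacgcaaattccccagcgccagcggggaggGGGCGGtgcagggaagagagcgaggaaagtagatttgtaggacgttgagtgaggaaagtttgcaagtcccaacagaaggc
Col4a6: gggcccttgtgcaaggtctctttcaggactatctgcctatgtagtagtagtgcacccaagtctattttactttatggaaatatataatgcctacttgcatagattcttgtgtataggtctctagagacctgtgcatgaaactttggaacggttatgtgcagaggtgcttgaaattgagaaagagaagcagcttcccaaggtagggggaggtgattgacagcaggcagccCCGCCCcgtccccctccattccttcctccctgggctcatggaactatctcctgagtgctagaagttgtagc
The starts of Col4a5 and Col4a6 are 1343 bases apart on the X chromosome. Those of Col4a1 and Col4a2, on chromosome 8, are 21 bases apart, and their windows share 78 bases. The GC box occurs in 60% of the 45 windows found for 41 of the 58 genes and in 35.7% of all 32851 RefSeq windows. The other motifs searched, on both strands, were CCAAT (33.3% of the 45, 37.4% of all), TATAAA (11.1%, 13.6%), the TEAD motif GGAATG (15.6%, 14.7%), the SMAD motif CAGACA (24.4%, 21.0%) and the SOX motif ACAATG (2.22%, 12.6%). Some windows overlap, and a match is a description of the letters only.

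The type IV collagen chains, which form the network of basement membranes, had positive log2 fold changes in all 5 tested members, and 1 passed. Col4a5, a chain of the minor type IV networks, ran from 12.5 to 25.9 CPM (median 17.0) in control and from 19.9 to 41.5 CPM (median 31.3) in stretched soma libraries. Control 3 and 4 lay above stretched 4 and 6, and the other 4 controls lay below every stretched library. Its log2 fold change was 0.71 ± 0.21 (adjusted p = 0.0262). Its neighbour Col4a6 went from a median of 5.39 (4.02 to 10.7) to 9.57 CPM (6.64 to 12.9), a log2 fold change of 0.67 ± 0.25 that did not pass (adjusted p = 0.0584). The per-kb ratio of the pair was alike, with a median of 3.29 in control and 3.26 in stretched libraries. The major chains Col4a1 (0.25 ± 0.15, adjusted p = 0.244) and Col4a2 (0.36 ± 0.18, adjusted p = 0.143) and Col4a4 (0.23 ± 0.20, adjusted p = 0.416) did not pass.

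Of the laminin chains, 2 of 11 passed, where 11.2% of all genes were higher in the same fit. Lamb1 ran from 60.9 to 119 CPM (median 69.7) in control and from 89.5 to 115 CPM (median 105) in stretched soma libraries, with a log2 fold change of 0.46 ± 0.15 (adjusted p = 0.0328). Control 4, at 119 CPM, was the highest of all 12 libraries, and the other 5 controls lay at or below 73.3 CPM, under every stretched library. Lama2, the alpha chain lost in a congenital muscular dystrophy, ran from 7.26 to 12.4 CPM (median 9.17) in control and from 10.0 to 15.8 CPM (median 12.5) in stretched libraries, and its groups overlapped (0.43 ± 0.15, adjusted p = 0.0487). Lamb2 (0.32 ± 0.17, adjusted p = 0.175), Lamc1 (0.09 ± 0.15, adjusted p = 0.691) and Lama5 (0.62 ± 0.29, adjusted p = 0.121) did not pass, nor did Nid1 (0.19 ± 0.17, adjusted p = 0.446) and Nid2 (0.48 ± 0.22, adjusted p = 0.123).

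Col19a1, a fibril-associated collagen that is also made by neurons, ran from 18.5 to 42.0 CPM (median 19.9) in control and from 29.0 to 44.5 CPM (median 35.4) in stretched soma libraries. As for Lamb1, control 4 was the exception, and the other controls were at or below 23.5 CPM. Its log2 fold change was 0.59 ± 0.19 (adjusted p = 0.0347). The transmembrane collagen Col25a1, a neuronal chain, did not pass (0.32 ± 0.20, adjusted p = 0.251).

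Of the matrix genes, Col1a1, Col1a2, Col3a1, Col6a1, Col18a1 and Fn1 did not differ detectably between stretched and control soma libraries. Col1a1 ran from 68.5 to 125 CPM (median 80.0) in control and from 77.2 to 141 CPM (median 97.8) in stretched libraries, which overlapped over most of their range (0.26 ± 0.17, adjusted p = 0.275). The log2 fold change was 0.00 ± 0.20 for Col1a2, 0.10 ± 0.22 for Col3a1, 0.09 ± 0.17 for Col6a1 and 0.13 ± 0.13 for Col18a1, with adjusted p-values from 0.493 to 1.00. Fn1 ran from 37.5 to 101 CPM (median 63.6) in control and from 44.5 to 84.1 CPM (median 80.5) in stretched libraries (0.20 ± 0.24, adjusted p = 0.574). The fibroblast and mural-cell markers did not all move together: of 22 tested, Rgs5 was higher and S100a6, Fbln1 and Dcn were lower, with a median of −0.38 against −0.03 over all genes. These 4 are named because they passed, in a fit where 11.2% of all genes were higher and 13.9% lower. Pdgfrb was at 17.9 to 23.3 CPM in stretched libraries, against 11.0 to 13.9 CPM in 5 controls and 26.9 CPM in control 4. No astrocyte marker of 12 and no choroid plexus or ependyma marker of 6 passed. Of the others, 1 of 11 endothelial and 3 of 11 microglial markers were lower, 1 of 6 oligodendrocyte-lineage markers was higher, and of 14 neuron markers 3 were higher and 4 lower. With offsets for transcript length and GC content, Thy1 was higher and Dcn and Prrx1 lower of the 22. In that fit 6.35% of all genes were higher and 16.4% passed in either direction. Of the neuron markers 1 was then higher and 1 lower. No endothelial marker passed, 3 microglial markers were lower, and 1 oligodendrocyte-lineage and 1 choroid plexus or ependyma marker were higher. The part of these marker shifts in the matrix results was not tested.

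**Figure D3:**
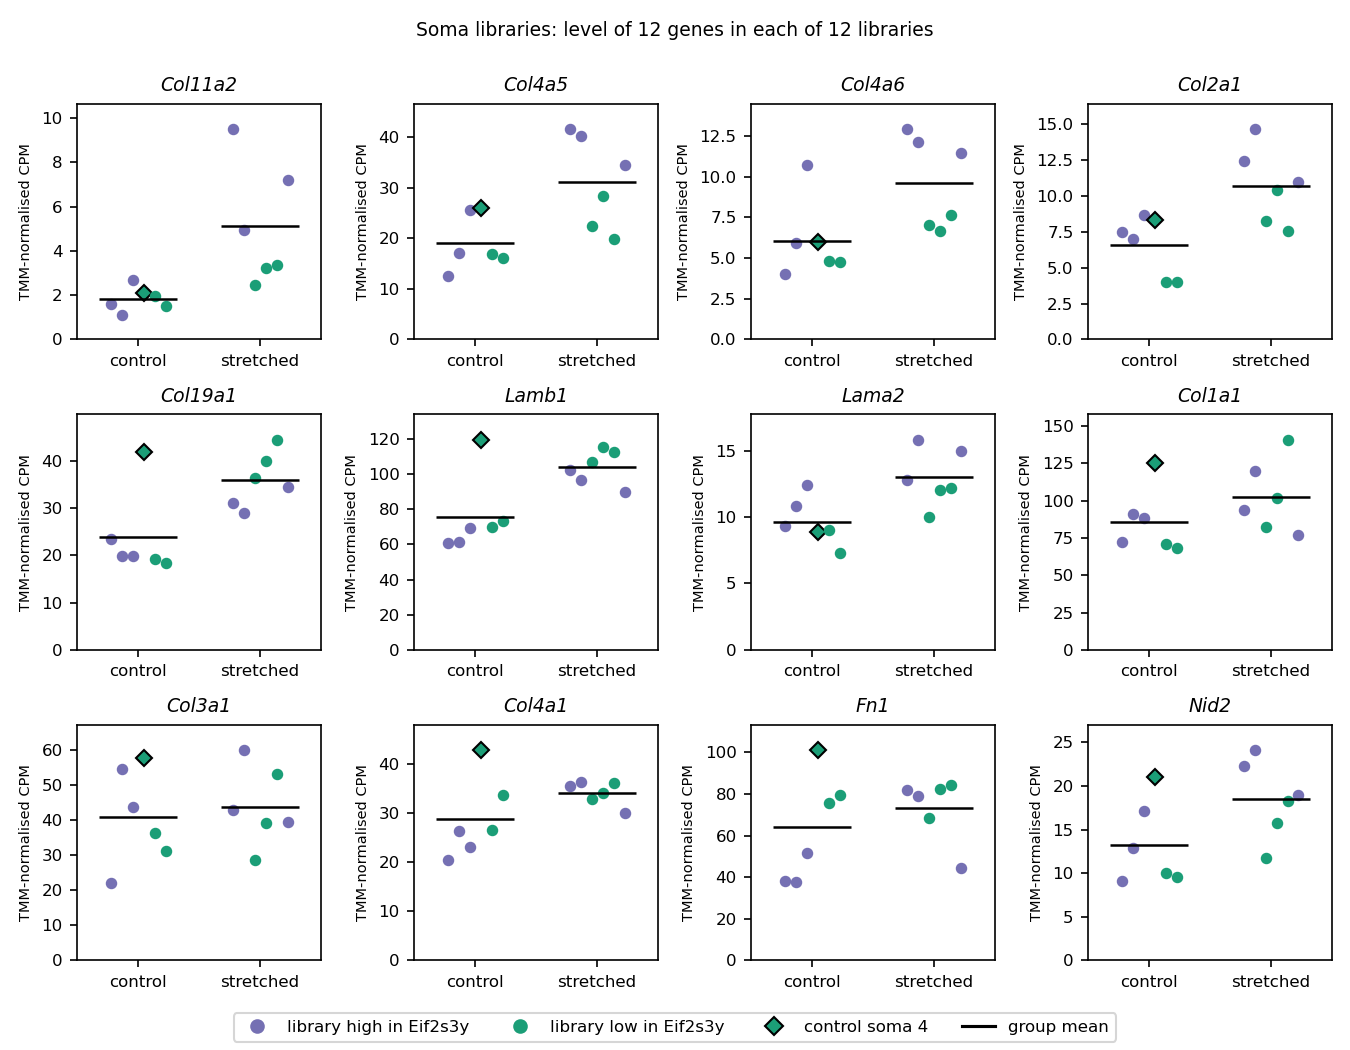
TMM-normalised CPM of 12 genes in each of the 12 soma libraries, on axes that start at 0, with the group mean as a bar, the Eif2s3y-high and Eif2s3y-low libraries in 2 colours and control soma 4 as a diamond. Control soma 4 is the highest library for Lamb1 (119 CPM), Fn1 (101 CPM) and Col4a1 (42.7 CPM), and for Col11a2 the 5 upper stretched libraries lie above every control.

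The number of calls changed with single libraries and with offsets for transcript length. Without control soma 4, 10 of the 49 genes were higher (18.2% of all genes were), with Col4a1, Col4a2, Col5a1, Nid1 and Nid2 added and Lama2 lost. Leaving out control 1, 2, 5 or 6 left Col11a2 as the only call, and leaving out stretched 1, 2, 5, 6 or 8 left 2 or 3 calls. The fold changes moved little: without control 1, 2, 5 or 6, Col19a1 was at 0.53 to 0.59, Col2a1 at 0.59 to 0.74, Col4a5 at 0.62 to 0.71, Lamb1 at 0.40 to 0.46 and Lama2 at 0.36 to 0.46, with adjusted p-values of 0.0509 to 0.101. Over 15619 genes, log2 fold change in the soma libraries went with transcript length (Spearman 0.457, a description across genes, which are not independent replicates). The matrix genes are long, with a median of 6046 bases for the 49 tested against 3304 over all genes tested. With offsets for length and GC content, 1 of the 49 passed, Col11a2 (1.46, adjusted p = 0.0110), against 6.35% of all genes, and the median of the 49 was 0.06 in place of 0.20. Of the calls lost, Col2a1 was at 0.67 (adjusted p = 0.0659), close to its value without offsets, Col4a5 at 0.55, Col19a1 at 0.42 and Lamb1 at 0.32, and Lama2 was the lowest at 0.21 (adjusted p = 0.426). With the offsets and without control soma 4, Col11a2, Col19a1, Col2a1 and Lamb1 passed, against 12.3% of all genes.

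Within the Eif2s3y-high libraries, 3 against 3, 12 genes were higher (16.5% of all genes were), and all stretched libraries were above all controls for 15 of the 49, against 22.8% of all genes. Col11a2 had a log2 fold change of 2.02 there. Within the Eif2s3y-low libraries, which hold control soma 4, no gene of the group and 0% of all genes passed. All stretched libraries were above all controls there for 5 of the 49 (Col11a2, Col16a1, Col4a6, Lama2 and Lama3), against 9.28% of all genes, and below them for 3 (Col5a3, Col9a3 and Lama4), against 9.54%. The log2 fold changes there were 0.70 for Col11a2, 0.60 for Col19a1, 0.67 for Col2a1, 0.44 for Lama2, 0.35 for Lamb1 and 0.26 for Col4a5. Without control soma 4, the Eif2s3y-low libraries gave 6 genes higher, against 13.2% of all genes, and 2 lower (Col5a3 and Col9a3), against 14.2%. Among the 6 were Col19a1 at 1.07, Col2a1 at 1.10 and Lamb1 at 0.62, with adjusted p-values of 0.000918, 0.00932 and 0.00160, while Col4a5 was at 0.50 and did not pass (adjusted p = 0.0637). With the split as a covariate 9 were higher, against 16% of all genes. The difference in stretch effect between the sets was not significant for any of the 49 (0% of all genes, 6 of the 49 at an unadjusted p under 0.05, and 1 by DESeq2, Col5a3).

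**Figure D4:**
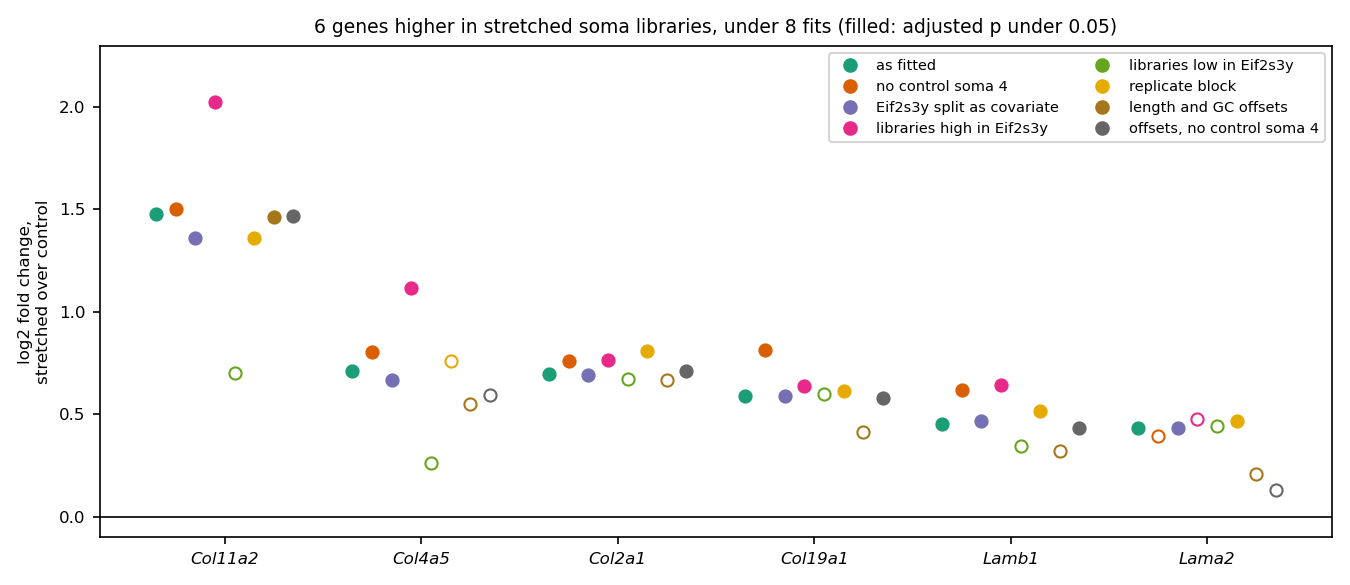
Log2 fold change of stretched over control soma libraries for the 6 genes that passed, under 8 fits, with filled points for an adjusted p under 0.05. Col11a2 is filled in all fits but that of the Eif2s3y-low libraries, and all 48 values lie above 0.

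In a fit with treatment as a term, the sets themselves differed in 9 of the 49 genes. Higher in the Eif2s3y-high libraries were Col9a3, Lamb2, Col16a1, Col6a1, Col4a6, Col9a1, Col15a1 and Col22a1 (7.13% of all genes were higher), and Lama4 was lower (6.17% of all genes were lower). The sets overlapped for Col16a1, Col6a1, Col4a6, Col9a1 and Col15a1 within the control libraries, and for Col22a1 within the stretched libraries. Col9a3 showed the difference between the sets most clearly. It was at 87.9 to 100 CPM in control and 83.1 to 99.0 CPM in stretched Eif2s3y-high libraries, and at 53.5 to 63.5 CPM and 43.2 to 51.2 CPM in the Eif2s3y-low ones, with no overlap (log2 difference 0.84 ± 0.09, adjusted p = 9.89e-06). Lamb2 differed by 0.55 ± 0.10 (adjusted p = 0.00141) and Lama4 by −0.65 ± 0.15 (adjusted p = 0.00900). Beside this, 11 of 12 astrocyte markers were higher in the Eif2s3y-high libraries, Gfap at 7556 to 10496 CPM against 3546 to 4436 CPM, and their part in the difference was not tested.

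Genes that act on or beside the matrix proteins were read from 4 lists in the same soma fit, in which 11.2% of all genes were higher and 13.9% lower. Of 33 tested genes that fold, modify, export or process collagen, 3 were higher and 8 lower, with a median log2 fold change of −0.22 against −0.03 over all genes. Of the 3 most abundant, Sec23a, a coat protein of vesicles leaving the endoplasmic reticulum, was higher (0.61 ± 0.17, adjusted p = 0.0197), while P4hb, a subunit of the prolyl hydroxylase (−0.22 ± 0.09, adjusted p = 0.0852), and Serpinh1, the collagen chaperone HSP47 (0.04 ± 0.11, adjusted p = 0.808), did not pass. The genes that fell, named after their values were seen, included Colgalt1, which glycosylates collagen (−1.05 ± 0.30, adjusted p = 0.0237), Bmp1, which removes the C-propeptide (−0.95 ± 0.23, adjusted p = 0.0103), and Ppib, a prolyl isomerase (−0.30 ± 0.10, adjusted p = 0.0353). The others were Plod3, Mia2, Creb3l1, Pcolce and Loxl1. With the length and GC offsets 5 of the 8 were still lower, and Plod3, Creb3l1 and Pcolce no longer passed. In that fit 16.4% of all genes passed in either direction, 6.35% of them higher.

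Of 25 matrix receptors tested, 2 were higher and none lower (median 0.07). Itgb1, the integrin beta-1 chain shared by most laminin, collagen and fibronectin receptors, rose by 0.60 ± 0.17 (adjusted p = 0.0191), and Dag1, the laminin receptor dystroglycan, by 0.65 ± 0.19 (adjusted p = 0.0279). With the offsets only Itgb1 passed. The receptor Ddr1, which binds collagen, was at 0.07 ± 0.15 (adjusted p = 0.740). Among 31 other matrix genes 3 were higher and 2 lower (median −0.02). Sparc, a collagen-binding glycoprotein, was lower (−0.86 ± 0.22, adjusted p = 0.0152), and Sparcl1 (−0.05 ± 0.20, adjusted p = 0.882) and Tnc (0.29 ± 0.15, adjusted p = 0.163) did not pass. Agrn, Ltbp4 and Npnt were higher and Ecm1 lower. Of 20 genes of TGF-beta signalling, a pathway known to induce matrix genes, the receptor Tgfbr1 was higher and the repressor Tgif1 lower (median 0.10), and the abundant members Id3, Tgfb2 and Ski did not pass (adjusted p = 0.204, 0.134 and 0.575).

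In the axonal libraries these genes were found in some libraries and not in others. Over 58 genes and 11 libraries there are 638 values, of which 526 were 0, 14 were 1 to 3 counts and 98 were over 3 counts. The 98 had a median of 65.3 CPM, and 67 of them (68.4%) were above the mean of the same gene in the soma libraries. The same share over all genes was 65.7% with a soma mean of 10 to 100 CPM. It was 74.1% with a soma mean of 1 to 10 CPM, so the 67 are not read as particular to these genes. No count at all was found in any axonal library for 21 of the genes. Fn1 and Col1a1 were over 3 counts in 7 of 11 libraries, Col1a2, Col3a1, Col4a1 and Col12a1 in 6, and no other gene in more than 4. Among genes with a soma mean of 10 to 100 CPM, 33.9% of the axonal values of the matrix genes were over 3 counts, and 36.2% over all 7162 genes. With a soma mean of 1 to 10 CPM the shares were 5.37% and 12.3% (4387 genes), and these differences were not tested.

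Fn1 was at 285, 518, 0, 366 and 0 CPM in control axon libraries 1, 2, 3, 5 and 7, and at 0, 5.86, 0, 168, 446 and 511 CPM in stretched axon libraries 1, 2, 4, 5, 6 and 8. Col1a1 was at 0.779, 215, 0, 71.6 and 0.0389 CPM in the same control and at 172, 608, 0, 0, 181 and 240 CPM in the same stretched libraries. Both genes were thus at 71.6 CPM or more in some libraries of each group and at 0 in others, and the groups overlapped fully. Col3a1 was at 0, 0, 59.7, 3.39 and 384 CPM in control and at 361, 106, 0, 0, 0 and 70.2 CPM in stretched axons. A library with one gene often lacked the other: control axon 7 had Col3a1 at 384 CPM with Fn1 at 0, and control axon 1 had Fn1 at 285 CPM with Col3a1 at 0. The highest axonal value of the group was Col5a2, a fibrillar chain, at 723 CPM in control axon 2. Lamc1 reached 578 CPM and Lamb1 499 CPM in stretched axon 2, and no axonal library had more than 24 of the 58 genes over 3 counts (stretched axon 8), where the soma libraries had 49 to 56.

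**Figure D5:**
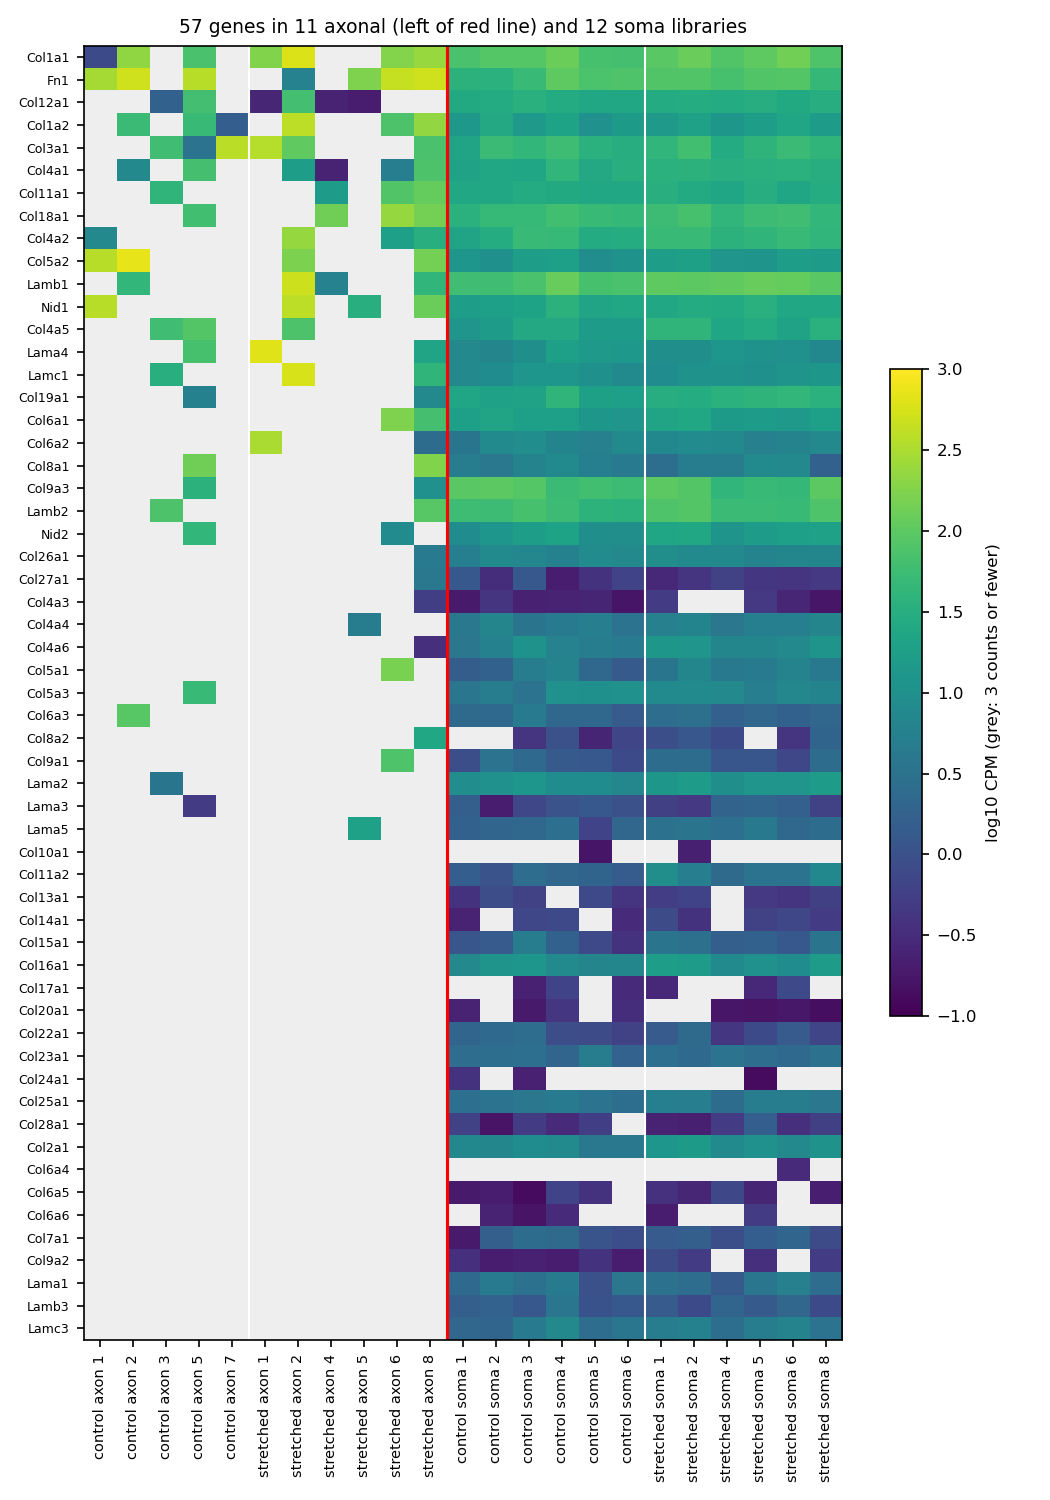
Level of 57 of the 58 genes in each of the 11 axonal and 12 soma libraries as log10 CPM, grey where a gene had 3 counts or fewer, ordered by the number of axonal libraries over 3 counts. The soma columns are nearly filled, while the axonal columns hold 98 scattered filled squares, 67 of them (68.4%) above the mean soma level of the same gene. That share was 65.7% over all genes with a soma mean of 10 to 100 CPM, and 74.1% with 1 to 10 CPM.

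Markers of other cells were found in the axonal libraries in the same scattered way. The fibroblast and mural-cell markers took 0.0558 to 0.164% of counts in control and 0.0312 to 0.509% in stretched axons, with 3 to 17 of the 33 over 3 counts, and the matrix genes took 0.0274 to 0.165% and 0.0159 to 0.315%. Postn, a fibroblast matrix protein, was at 886 CPM in stretched axon 1 and 186 CPM in control axon 3, and Pdgfrb did not pass 0.759 CPM in any axonal library. The astrocyte markers took 0.484 to 2.60% of counts in control and 0.502 to 2.07% in stretched axons, with Gfap at 2867 to 20253 CPM in every axonal library although the label calls the preparation purely axonal. The endothelial markers took 0 to 0.0112% of counts in control and 0 to 0.0256% in stretched axons, with at most 2 over 3 counts in a library. Among them Cldn5, the defining endothelial tight-junction gene, had no count in any axonal library. The microglial markers took 0 to 0.0562% and 0 to 0.0736%, with up to 8 of 12 over 3 counts in stretched axon 8. What part these markers have in the axonal values of the matrix genes was not tested.

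Stretch in the axonal libraries gave no call among the 5 genes with enough counts to be tested. The log2 fold changes were 1.74 ± 2.58 for Col1a1, 2.35 ± 2.82 for Col1a2, −0.09 ± 2.78 for Col3a1, 0.03 ± 2.64 for Col4a1 and −0.22 ± 2.36 for Fn1 (edgeR adjusted p = 1.00 for each). Of 4947 genes tested 0% passed, with 46 at an unadjusted p under 0.05, and none of the 5 was among those. DESeq2 called 18 and limma voom 9 of the 4947 genes, and none of the 5. With SEs of more than 2 on the log2 scale, a difference of several-fold was not detectable.

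Axonal libraries were then compared with soma libraries of the same treatment. In control cultures 20 of 44 tested genes were called lower in axons, against 34.4% of all genes, and none higher (0.856% of all genes were). In stretched cultures 16 of 43 were called lower, against 28.4% of all genes, and none higher (0.843% of all genes were). None of the 20, and of the 16 only Col4a6, had an axonal library of the same treatment over 3 counts. They passed the filter through the soma libraries alone, so these counts describe detection and support no difference of their own. With a mean of at least 10 CPM none of the group was called in either culture, against 9.30 and 6.81% of all genes. Where no axonal library of the group passed 3 counts, the soma mean is given as a multiple of that floor, averaged over the libraries. This is not a bound on the difference, because axonal values without a count were common over all genes. They made up 60.1% over all genes with a soma mean of 10 to 100 CPM. With a soma mean of 1 to 10 CPM they made up 85.2%. In control cultures the soma mean of Col6a1, a chain of the beaded filaments of type VI collagen, was 133 times the floor. It was 70.0 times the floor for Col16a1, 55.8 for Col26a1, 53.1 for Col6a2 and 51.3 for Col2a1. Another 13 (Col4a6, Col4a4, Lamc3, Col25a1, Lama1, Col5a1, Col23a1, Lama5, Col11a2, Lamb3, Col15a1, Col22a1 and Col7a1) stood at 11.8 to 47.1 times the floor. Col9a1 had at most 2 counts in an axonal library against a mean of 1.68 CPM in soma. In stretched cultures the soma mean of Lama2 was 94.5 times the floor, that of Col16a1 92.9, Col2a1 78.1 and Col11a2 37.3 times.

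In both cultures the genes called lower in axons were at or below a mean of 16.9 CPM in the soma libraries. Relative to soma, Fn1 was at 1.61 ± 1.77 (adjusted p = 0.682) in control and 1.03 ± 1.75 (adjusted p = 0.880) in stretched cultures on the log2 scale, Col1a1 at −0.88 ± 1.77 and 0.43 ± 1.61, and Lamb1 at −3.49 ± 2.41 and −0.78 ± 2.00, none past the threshold. Their axonal values ran from 0 to 518, 608 and 499 CPM, and the SEs were large beside the differences.

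The difference between the stretch effect in axons and in somata was fitted over all 4 groups, and 12 of 49 genes passed, against 21.8% of all genes. Values were positive for Col6a2 (12.74 ± 3.34, adjusted p = 0.0161), Col6a1 (12.60 ± 3.21, adjusted p = 0.0161), Col5a1, Col9a1, Lama5, Col27a1, Col26a1 and Col4a4, and negative for Col6a3 (−11.28 ± 2.91, adjusted p = 0.0161), Col5a3 (−11.04 ± 2.85, adjusted p = 0.0161), Lama2 and Lama3. Each rested on 1 or 2 axonal libraries. Col6a1 was at 167 and 65.3 CPM in stretched axon 6 and 8 and at 0 in the other 9, Col6a2 at 311 and 2.63 CPM in stretched axon 1 and 8, Col6a3 at 92.8 CPM in control axon 2 alone and Col5a3 at 50.0 CPM in control axon 5 alone. Of the 3 chains of type VI collagen, which assemble into one protein, Col6a1 and Col6a2 were both found in stretched axon 8 and had the same sign, while Col6a3 was found in another library and had the opposite sign. Without control axon 2, Col6a3 was at 0.07, and limma voom and the fit with a replicate block called none of the 12.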

How the data were processed

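The deposited files hold gene counts, which the authors made from poly(A) RNA libraries of 23 samples. Per the submitters' processing notes the build was mm10 and the tools were FastQC 0.11.9, MultiQC 1.12, fastp 0.20.1, STAR 2.7.08a and HTSeq 0.13.5. The annotation, the strand setting and the use of molecular identifiers are not given in the sources used here. Lines that name no gene stayed out of all totals (no feature 3.18 to 7.94%, ambiguous 4.37 to 5.94%, not unique 5.43 to 13.4%). Of the gene IDs 55141 were matched to names and lengths. Each comparison was fitted with edgeR 4.0.16 (filterByExpr, TMM, quasi-likelihood F test, Benjamini-Hochberg over all genes tested, threshold 0.05) in R 4.3.3, on the libraries of the groups compared, and the interaction on all 4 groups. The SE is the log2 fold change divided by the root of F. DESeq2 1.42.0, limma 3.58.1 and offsets from mgcv 1.9.3 served as alternatives, and scripts were tested on simulated data. The members and the gene lists were chosen with earlier results of these data known. Genes are named if they passed, or as the best known and most abundant of their role or list. Equal replicate numbers were not treated as pairs in the main fits, since no label says that they share a culture. Correlations between equal numbers were not all over 0.1. In soma libraries the mean correlation was 0.189 between equal and −0.0301 between different numbers, so this cut does not show that they are unpaired. The Eif2s3y sets, the offsets and the fits without control soma 4 were added after seeing the data. The values of 1 member are not reported here, though it stays in the fits and counts.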

Additional observations from a re-analysis of the deposited data

Results flagged for a closer look

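Libraries far from the rest of their group were flagged by a cut-off that chance passes in about 1 in 20 sets of normally distributed values. This rate does not apply to the axonal sets, which include libraries without a count. In 8 of 80 sets of 5 or 6 values, 1 library lay far from the rest of its group. In soma libraries, as TMM-normalised CPM, these were Col15a1 at 4.83 and Col4a6 at 10.7 in control 3, and Col19a1 at 42.0 and Lamb1 at 119 in control 4. In axonal libraries, as CPM, they were Col3a1 at 384 in control 7 and 361 in stretched 1, and Col4a1 at 65.2 in control 5 and 76.3 in stretched 8.

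For 12 genes the interaction term in edgeR, the stretch effect in axonal less that in soma libraries on the log2 scale, passed the threshold. In the same fit 21.8% of all genes passed, and limma voom and the replicate block called none of the 12. It was 12.74 for Col6a2, 12.60 for Col6a1, 11.41 for Col5a1, 9.36 for Col9a1, 8.40 for Lama5, 7.61 for Col27a1, 6.99 for Col26a1 and 6.77 for Col4a4. It was −11.28 for Col6a3, −11.04 for Col5a3, −7.44 for Lama2 and −4.92 for Lama3. Each rests on 1 or 2 axonal libraries with counts, and such sizes depend on the prior count of the fit.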

How the results depend on the processing

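The share of all genes called in either direction in the same fit stands in parentheses, and no count is read as particular to these genes. For stretch in soma, where 6 genes passed (25.1%), 13 passed with limma voom (35.7%), 0 with all 4 groups in 1 fit (0%), 12 in the Eif2s3y-high (29.2%) and 0 in the Eif2s3y-low libraries (0%), 13 without both soma libraries numbered 4 (36.1%), 1 with length and GC offsets (16.4%), and 1 to 10 when 1 library was left out (16.8 to 38.3%). For stretch in axon, 14 passed with all 4 groups in 1 fit (24.0%), and 0 when any 1 library was left out (0%). For axon against soma, 33 (control, 35.5%) and 27 (stretched, 35.1%) passed with no filter and 0 in both with a mean of at least 10 CPM (9.30 and 6.81%), 30 with limma voom in stretched cultures (70.5%), and 18 to 29 (32.1 to 53.6%) and 16 to 22 (28.7 to 43.3%) with 1 library left out. For the interaction, 5 passed with DESeq2 (9.09%), 0 with limma voom (0%), 2 with a mean of at least 10 CPM (16.7%), and 10 to 16 with 1 library left out (20.5 to 27.6%). For the Eif2s3y sets DESeq2 called 14 (17.2%), and 1 for their difference in stretch effect (0.0576%). The cause of these changes was not tested. With 1 library left out, the interaction ran from −11.61 to 0.074 for Col6a3 (reversed without control axon 2), from −0.35 to 7.08 for Col4a4 and −0.73 to 8.72 for Lama5 (stretched axon 5), from −0.79 to 11.68 for Col5a1 and −1.98 to 10.99 for Col9a1 (stretched axon 6), and from −0.17 to 7.27 for Col26a1 (stretched axon 8).

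With the replicate block, which the labels do not tie to a shared culture, 7 genes passed for stretch in soma (20.5%), 3 with the block and the offsets (12.9%), 0 for stretch in axon (0%), 20 and 27 for axon against soma in control and stretched cultures (35.9 and 53.1%), and 0 for the interaction (0.0372%), where Col9a1 changed sign (−0.058). Correlations between equal numbers were 0.0906 to 0.233 in soma and 0.0294 to 0.0502 in axonal libraries.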
